A study of Mus musculus with 18 samples.

Results

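The CD300 receptors examined here were Cd300a, Cd300lb, Cd300ld and Cd300lf, which encode CD300a, CD300b, CD300ld and CD300f and were followed through 18 RNA sequencing libraries of mouse eosinophils cultured with apoptotic cells (ACs). They were found by gene symbol after each Ensembl identifier was matched without its version, and all 4 matched, among 54446 genes in the table. The study's Type 1 experiment contributed 12 libraries, in which eosinophils received ACs only or ACs together with E. coli, with IFN-γ or with both stimuli (IFN-γ + E. coli + ACs, the combined group). Its IL-4 experiment contributed 6, with ACs only or with ACs and IL-4. Each of the 6 groups held 3 libraries. The 2 experiments were told apart by how the libraries are named, since their titles and descriptions do not name an experiment. The question put to the data was how each stimulus moved these receptors against ACs alone of the same experiment.

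All groups shared the same cells. Eosinophils were washed from the peritoneal cavity of NJ.1638 Il5Tg mice, which overproduce IL-5 and so carry large numbers of eosinophils, and the labels give the strain as C57BL/6. T and B cells were removed with anti-Thy1.2 and anti-B220 beads. The ACs were wild-type thymocytes killed with dexamethasone, given at 5 per eosinophil for 18 h. After the culture, eosinophils were drawn out again on anti-Siglec-F beads, so that a Siglec-F-positive selection stood between the culture and the RNA. No dose of IFN-γ, IL-4 or E. coli and no age of the eosinophil donors is given in the sources used here. Eosinophils cultured without ACs are not analysed here, so no value below measures what the ACs themselves did. The libraries measure mRNA and not receptor at the cell surface. The paper reports that ACs lowered Cd300lb transcripts while CD300b at the surface increased.

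CD300 receptors are membrane proteins of myeloid cells with an immunoglobulin-like domain outside the cell. Several bind phosphatidylserine and other lipids that dying cells expose, and they pass on opposite signals: some carry immunoreceptor tyrosine-based inhibitory motifs (ITIMs), which recruit the phosphatases encoded by Ptpn6 and Ptpn11, whereas others have short tails and signal by pairing with adaptors such as those encoded by Tyrobp and Fcer1g. CD300a is an inhibitory receptor, CD300f can inhibit or activate and has been described as a partner of the IL-4 receptor in eosinophils, and CD300b and CD300ld are of the activating kind.

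The annotation drew the same division. Among the residues that follow the most hydrophobic window of 19, taken as the membrane span, the longest principal coding sequence of Cd300a (318 residues) held 2 ITIMs, and that of Cd300lf (330 residues) held 2 ITIMs and 1 YxxM, the motif that binds phosphatidylinositol 3-kinase. The tails of Cd300lb (255 residues) and Cd300ld (221 residues) held 0 ITIMs. Their membrane windows instead held a charged residue, basic in Cd300lb and acidic in Cd300ld, where those of Cd300a and Cd300lf held 0. The coding stretches of the motifs are shown because they are what sets the inhibitory members apart from the others, with the tyrosine codon in capitals and the residue number of that tyrosine in the name. They are read 5′ to 3′ from the GENCODE annotation of GRCm38.
Cd300a ITIM, tyrosine 262: gtggaaTATagcacattg
Cd300a ITIM, tyrosine 274: cttcacTATtcatccgtg
Cd300lf ITIM, tyrosine 234: ctctgtTATgcagacctg
Cd300lf ITIM, tyrosine 282: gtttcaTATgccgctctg
Cd300lf YxxM, tyrosine 269: TATgtcaccatg
The 2 ITIM-bearing members were not the closest pair, with 36.2% identical residues over 293 aligned. Cd300lf stood nearest to Cd300ld, at 56.2% over 219. Cd300a stood nearest to Cd300c2, a family gene outside the 4, at 62.9% over 221, although Cd300c2 encodes a short receptor of 228 residues with a basic residue in its membrane window and 0 ITIMs. CEL-Seq2, the method used, counts reads near the 3′ end of transcripts, so this likeness bears on the counts only through the last bases. In the last 500 bases, 3.55% of the 50-base words of Cd300c2 also occurred elsewhere in transcripts of Cd300a, whereas Cd300a, Cd300lb and Cd300ld shared 0% of theirs with any other gene by the same count, and Cd300lf shared 3.77%, none of it with the CD300 family.

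The 4 genes lie on chromosome 11 of GRCm38 in a cluster of 11 family genes that spans 244 kb. Cd300a (ENSMUSG00000034652) occupies chr11:114890041-114904654 on the plus strand. The other members are on the minus strand: Cd300lb (ENSMUSG00000063193) at chr11:114922781-114934386, Cd300ld (ENSMUSG00000034641) at chr11:114982274-114989922 and Cd300lf (ENSMUSG00000047798) at chr11:115116214-115133992. Cd300lf lies inside Rab37, a gene on the opposite strand that spans 115091431 to 115162236, with 0 exon bases shared.

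Most of the rest of the family was barely detected. Over all 18 libraries together, Cd300c had 14 reads, Cd300e 35, Cd300lg 109 and Cd300ld2 1, and Cd300ld3, Cd300ld4 and Cd300ld5 had 0. Of the 3′ words of Cd300ld3 and Cd300ld5, 100% occurred in other genes of the family, and of those of Cd300ld4, 88.9%, and reads of such words would be left out if the counting kept unique reads only. Cd300c2 was the exception, with 2920 reads and at least some in every library, and it is given beside the members for that reason.

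Libraries held 779421 to 7782072 reads on genes (median 4461121). The shallowest libraries were replicate 3 of both groups of the IL-4 experiment, at 849705 and 779421 reads, where 3 reads stand for normalized counts of 15.4 and 16.1. Eosinophil markers checked the label: Siglecf lay between 1514 and 3367 and Ccr3 between 2623 and 4934 normalized counts in every library. Csf2rb was at 4225 to 22249, Alox15 at 5145 to 11929, Ear6 at 336 to 8689 and Il5ra at 102 to 455. Epx, the eosinophil peroxidase, was at 0 to 25.7, and Ear1, Ear2 and Prg2 were also low, at 2.45 to 77.1, 0 to 257 and 57.5 to 270. Thymocyte markers, which would follow RNA of the ACs, summed to 45.5 to 179 over 11 genes. Peritoneal macrophage markers were abundant, summing to 7794 to 30611 over 10 genes, with C1qc alone at 2138 to 14355, and macrophages also express CD300 receptors. Mast cell markers summed to 5.64 to 67.6, B cell markers to 97.6 to 1043 and neutrophil markers to 1535 to 4996. In bulk RNA, fewer cells of a type and less RNA per cell cannot be told apart.

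**Figure D1:**
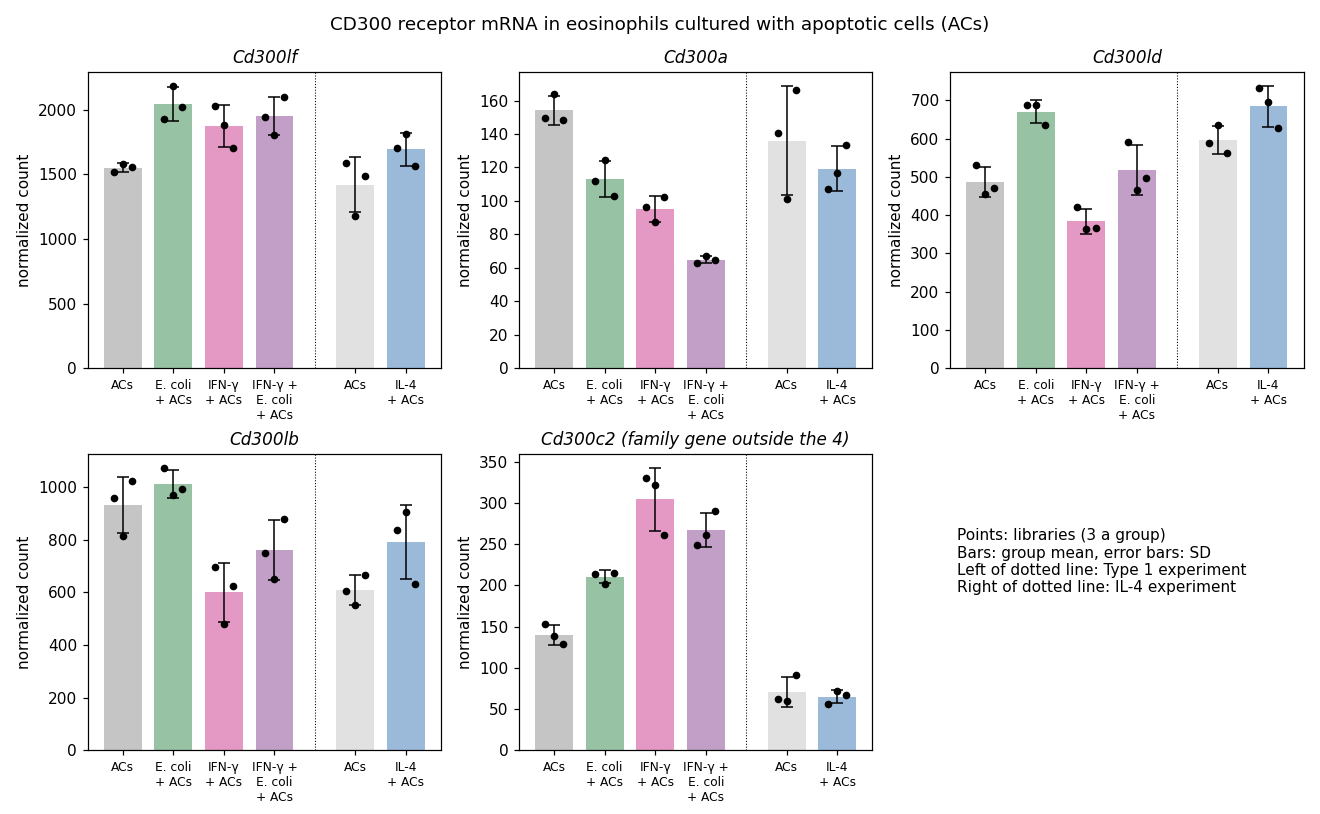
Normalized count (y axis, from 0) of the 4 CD300 receptors and Cd300c2 in each library, by group. Points are libraries, bars are means of 3 and error bars are SD. Cd300a steps down from 154 with ACs to 64.9 with IFN-γ + E. coli + ACs, while Cd300lf stays between 1181 and 2186 in all libraries.

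Cd300lf, the member with both ITIMs and a YxxM, was detected at 278 to 3442 reads per library. In the order of replicates 1, 2 and 3, its normalized count with ACs in the Type 1 experiment was 1518, 1583 and 1558. The E. coli libraries had 1929.6, 2186 and 2021. Those with IFN-γ had 2031, 1884 and 1705, and the combined group had 1944, 1808 and 2099.9. Every stimulated library of the Type 1 experiment was above every library with ACs alone, and the 3 stimulated groups overlapped one another. In the IL-4 experiment it was 1589.6, 1181 and 1490.5 with ACs and 1707, 1814 and 1563 with IL-4 + ACs, and these groups overlapped.

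Cd300a, the other ITIM-bearing member, ran on far fewer reads, 26 to 222 per library. Its normalized count with ACs was 149.6, 164 and 148. It was 112, 124 and 102.9 in the E. coli group and 96.3, 87.1 and 102.6 in the IFN-γ group. In the combined group it was 62.7, 67.2 and 64.8. The combined stimulus gave the lowest group of all 6, and none of its libraries reached those of another group. In the IL-4 experiment it was 141, 101.2 and 166 with ACs, the widest spread of any member and group (SD 32.7 on a mean of 136), and 107, 117 and 134 with IL-4 + ACs, inside that spread.

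Cd300ld, an activating member that pairs with the Fcer1g adaptor, had normalized counts of 532, 456 and 471 with ACs. The E. coli libraries were all above these, at 688, 688 and 635, and the IFN-γ libraries all below, at 422, 364 and 365. In the combined group the values were 590.1, 465 and 498, overlapping ACs alone. In the IL-4 experiment they were 589.5, 635 and 563 with ACs and 732, 695 and 627 with IL-4 + ACs.

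Cd300lb, an activating member that pairs with the Tyrobp adaptor, had normalized counts of 958, 815 and 1024 with ACs and, overlapping them, 1072, 969 and 994 in the E. coli group. IFN-γ + ACs gave 695, 478 and 626, all below the libraries with ACs alone. The combined group gave 751, 652 and 877, which reached into the range of ACs. In the IL-4 experiment it was 607, 553 and 665 with ACs and 838, 905 and 632 with IL-4 + ACs, where only replicate 3, a shallow library, overlapped the controls.

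Cd300c2, an activating family gene outside the 4, had normalized counts of 153, 139 and 129 with ACs. The E. coli group had 214, 202 and 216 and the IFN-γ group 329.8, 322 and 261. The combined group had 249, 261 and 289.7. All 9 stimulated libraries of the Type 1 experiment were above all with ACs. In the IL-4 experiment it was lower in both groups, at 61.7, 59.2 and 91.1 with ACs and 56.2, 71.7 and 66.8 with IL-4 + ACs.

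Ranked by group mean, Cd300a went from ACs of the Type 1 experiment (154) through ACs of the IL-4 experiment (136), IL-4 + ACs (119), E. coli + ACs (113) and IFN-γ + ACs (95.3) to IFN-γ + E. coli + ACs (64.9), and neighbours overlapped in that order except around the last 2 steps, where E. coli + ACs, IFN-γ + ACs and the combined group were apart. For Cd300lb the order ran from E. coli + ACs (1011) to IFN-γ + ACs (599.7), and for Cd300lf from E. coli + ACs (2046) to ACs of the IL-4 experiment (1420.4), with every neighbouring pair overlapping. Cd300ld was highest with IL-4 + ACs (685) and lowest with IFN-γ + ACs (384), and the lowest group was the only one apart from its neighbour.

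Differences were tested with limma on the log2 of the normalized count plus 1, over all genes with a mean of at least 10, and a gene counted as past the threshold when it moved by 1.5-fold or more and its p, adjusted over all tested genes by the Benjamini-Hochberg method, was under 0.05. For each comparison the share of all tested genes past that threshold is given, since a stimulus that moves many genes moves members too. Counts at an unadjusted p under 0.05 have no such share beside them, so nothing is read from them. With 3 libraries against 3, an exact permutation test of a single gene cannot go below p = 0.10, so p-values come from the fit across all genes.

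**Figure D2:**
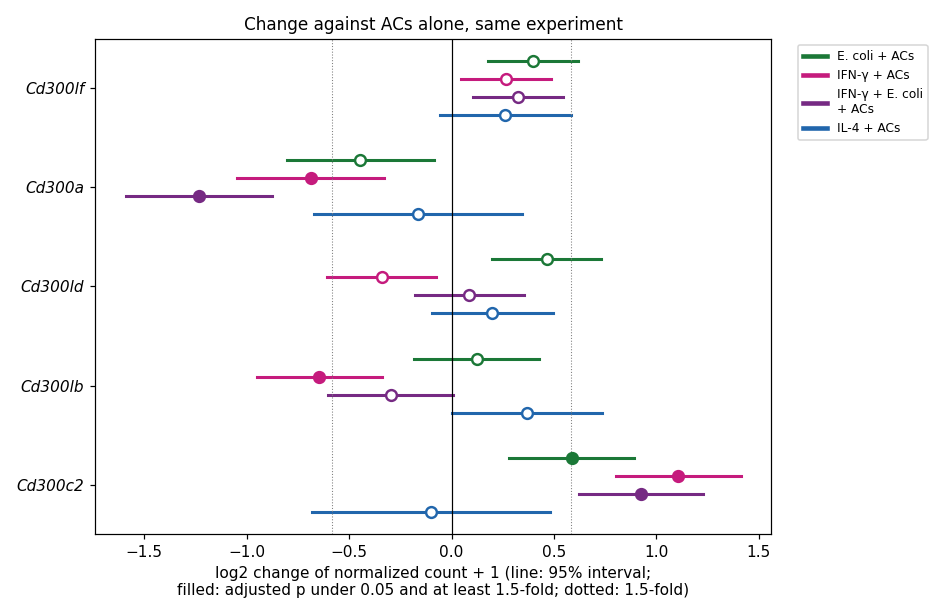
Log2 change against ACs of the same experiment (x axis, log2 of normalized count plus 1) for the 4 receptors and Cd300c2 under each stimulus, with 95% intervals. Filled points are past the threshold: Cd300a under IFN-γ and under both stimuli, Cd300lb under IFN-γ, and Cd300c2 under all 3 Type 1 stimuli, with E. coli only just and not in every setting.

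IFN-γ lowered the mRNA of Cd300a and Cd300lb, which encode an inhibitory and an activating receptor, while that of Cd300c2 rose. By limma, Cd300a fell by 0.69 ± 0.17 on the log2 scale (SE, n = 3 and 3, adjusted p = 0.0050), to 0.620 of the level with ACs alone. Cd300lb fell by 0.65 ± 0.15 (adjusted p = 0.0025), to 0.639. Cd300lf differed by 0.27 ± 0.10 (adjusted p = 0.066) and Cd300ld by −0.34 ± 0.13 (adjusted p = 0.053), so these 2 members did not pass although their libraries were apart from those with ACs. Cd300c2 rose by 1.11 ± 0.15 (adjusted p = 1.0e-05), a 2.15-fold increase. Of 10166 genes tested, 9.96% were lower and 11.4% higher past the threshold, and 27.4% had an adjusted p under 0.05 at any fold, against 2 of 4 members lower and 0 higher. Both calls of the members held with edgeR and DESeq2. The call of Cd300lb rests on 2 libraries: without replicate 3 of ACs the change was −0.58 (adjusted p = 0.019) and without replicate 2 of IFN-γ + ACs −0.49 (adjusted p = 0.021), both under 1.5-fold. Macrophage markers summed to 14527 to 18470 with ACs and 21816 to 30611 with IFN-γ + ACs, with 4 of 10 higher and 1 lower, and B cell markers to 902 to 1043 and 97.6 to 183, with Ighm at −3.08. Siglecf, whose product was the handle for the final selection, fell by 0.99. Of 8 eosinophil markers tested, 4 were lower past the threshold (Siglecf, Il5ra, Ear6 and Alox15) and 0 higher. The part of any of these in the changes was not tested.

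E. coli moved no member past the threshold. The count was 0 of 4 by limma, against 5.05% of tested genes higher and 5.25% lower, and edgeR and DESeq2 also gave 0. At an unadjusted p under 0.05 there were 3 members, a count with no share of all genes beside it. Cd300ld differed by 0.46 ± 0.13 (SE, adjusted p = 0.019, 1.38-fold) and Cd300lf by 0.40 ± 0.10 (adjusted p = 0.016, 1.32-fold), which made 2 of 4 with an adjusted p under 0.05 against 13.5% of all genes, but both were short of 1.5-fold. Cd300a differed by −0.45 ± 0.17 (adjusted p = 0.094) and Cd300lb by 0.12 ± 0.15 (adjusted p = 0.66, 95% interval −0.18 to 0.43). Cd300c2 was at 0.59 ± 0.15 (adjusted p = 0.0100), only just past 1.5-fold. It was under 1.5-fold, at 0.57 to 0.58, with edgeR, DESeq2, a pseudocount of 5 and array weights, and it lost the call, at 0.53 to 0.58 and an adjusted p up to 0.058, without replicate 2 or 3 of ACs or 1 or 3 of E. coli + ACs. Macrophage markers summed to 7794 to 9513 with E. coli + ACs, below all libraries with ACs, with 5 of 10 lower against ACs and 0 higher. B cell markers summed to 309 to 317, with Ighm at −1.88, and Siglecf differed by −0.30 (adjusted p = 0.066). Of 8 eosinophil markers tested, 2 were higher past the threshold and 1 lower. Their part in these values was not tested.

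IFN-γ with E. coli lowered Cd300a, the largest change of a member under any of the 4 stimuli against ACs. Cd300a fell by 1.23 ± 0.17 on the log2 scale (SE, limma adjusted p = 1.2e-05), to 0.425 of the level with ACs alone, and kept its call when any library was left out, with changes of −1.26 to −1.19. Cd300lf differed by 0.33 ± 0.10 (adjusted p = 0.019, 1.25-fold), short of the fold threshold. Cd300lb differed by −0.30 ± 0.15 (adjusted p = 0.115) and Cd300ld by 0.09 ± 0.13 (adjusted p = 0.62, 95% interval −0.18 to 0.35). Cd300c2 rose by 0.92 ± 0.15 (adjusted p = 5.0e-05). This stimulus moved the most genes of the 4 against ACs, with 14.7% higher, 17.2% lower and 39.1% at an adjusted p under 0.05 of any fold, against 0, 1 and 2 of 4 members. Macrophage markers summed to 9221 to 9666, below ACs, whereas they were above ACs with IFN-γ alone. By gene, 5 of 10 were lower past the threshold and 2 higher, Adgre1 at 0.72 and Marco at 0.84, so the markers did not move together. B cell markers summed to 154 to 172 against 902 to 1043 with ACs, carried by Ighm, an immunoglobulin heavy chain (−2.82), and neutrophil markers to 1535 to 1909 against 2109 to 2380. The neutrophil sum followed Retnlg, with means of 1665 with ACs and 923 with both stimuli. By gene, 2 of 4 neutrophil markers tested were higher past the threshold, Cxcr2 and Ly6g, and 1 lower. Siglecf fell by 0.76, and of 8 eosinophil markers tested 2 were lower past the threshold and 1 higher. The part of any of these in the change of Cd300a was not tested.

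Adding E. coli to IFN-γ, judged against IFN-γ + ACs, gave differences of −0.54 ± 0.17 for Cd300a (adjusted p = 0.030) and 0.43 ± 0.13 for Cd300ld (adjusted p = 0.023), both under 1.5-fold, so 0 of 4 members passed by limma, edgeR or DESeq2 against 14.6% of genes, with 3 at an unadjusted p under 0.05. Cd300lb differed by 0.35 (adjusted p = 0.10) and Cd300lf by 0.06 (adjusted p = 0.74). Without replicate 2 of IFN-γ + ACs, Cd300a passed, at −0.61 (adjusted p = 0.042). Adding IFN-γ to E. coli, judged against E. coli + ACs, lowered Cd300a past the threshold, by 0.79 ± 0.17 (adjusted p = 0.0023, 0.579 of the level), against 19.4% of genes in either direction. Cd300lb at −0.42 (adjusted p = 0.041) and Cd300ld at −0.38 (adjusted p = 0.035) were short of 1.5-fold, and Cd300lf differed by −0.07 (adjusted p = 0.68).

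The interaction of IFN-γ and E. coli asks whether the combined change departs from the sum of the single changes. None of the 4 members passed by limma, edgeR or DESeq2, against 7.44% of all genes, and 1 had an unadjusted p under 0.05. For Cd300a the departure was −0.10 ± 0.24 (adjusted p = 0.86, 95% interval −0.60 to 0.41), so its change with both stimuli was close to the sum of the single changes within a wide interval, although that with E. coli alone did not pass. For Cd300lf it was −0.34 ± 0.15 (adjusted p = 0.18). Cd300c2 did pass, at −0.77 ± 0.21 (adjusted p = 0.027): the combined change was smaller than the sum of its single changes. That call was lost, with an adjusted p of 0.058 to 0.082, when replicate 2 or 3 of ACs, 1 or 3 of E. coli + ACs, 1 or 2 of IFN-γ + ACs, or 1 of the combined group was left out, and at 0.081 with all 18 libraries in 1 fit.

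IL-4 moved no member past the threshold. The log2 changes by limma were 0.37 ± 0.16 for Cd300lb (adjusted p = 0.52), 0.26 ± 0.14 for Cd300lf (adjusted p = 0.60), 0.20 ± 0.13 for Cd300ld (adjusted p = 0.68) and −0.16 ± 0.23 for Cd300a (adjusted p = 0.84). The 95% intervals ran from −0.67 to 0.34 for Cd300a and from 0.00 to 0.73 for Cd300lb, so a decrease of Cd300a of the size seen with both Type 1 stimuli was outside its interval. Only 0.74% of 10669 genes were higher and 0.347% lower, with 1.09% at an adjusted p under 0.05 of any fold. At an unadjusted p under 0.05 there was 1 member, and edgeR and DESeq2 also gave 0. Without the 2 shallow replicate 3 libraries, Cd300lb differed by 0.59 (adjusted p = 0.0062), past the threshold. Macrophage marker sums overlapped, at 21420 to 30549 with ACs and 17349 to 27822 with IL-4 + ACs, although 2 of 10 were lower past the threshold, Marco at −2.58 and Vsig4 at −1.36, and 0 higher. Of 10 eosinophil markers tested, 2 were higher past the threshold, Ear2 and Ear6, and 0 lower. With 1 library left out their limma adjusted p reached 0.093 and 0.099. Of 3 neutrophil markers tested, 1 was lower, Mmp8, and 0 higher. The part of any of these in the values of the members was not tested.

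**Figure D3:**
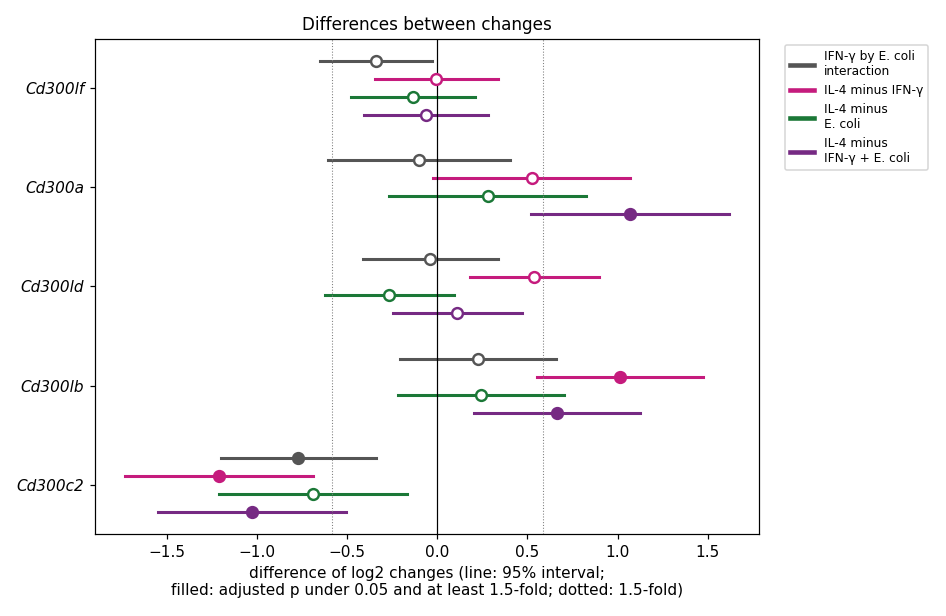
Differences between log2 changes (x axis) for the 4 receptors and Cd300c2, with 95% intervals and filled points past the threshold. The change of Cd300lb with IL-4 exceeded that with IFN-γ by 1.01, and that of Cd300a with IL-4 exceeded the change with IFN-γ + E. coli by 1.07, while Cd300lf lay near 0 throughout the IL-4 differences.

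Whether IL-4 and the Type 1 stimuli acted differently on a member was tested as the difference of their changes, each against its own ACs. The change of Cd300lb with IL-4 exceeded that with IFN-γ by 1.01 ± 0.22 (SE, limma adjusted p = 0.0029). Cd300ld followed at 0.54 ± 0.17 (adjusted p = 0.038, under 1.5-fold) and Cd300a at 0.52 ± 0.26 (adjusted p = 0.21). For Cd300lf the changes with IL-4 and IFN-γ were nearly equal, with a difference of −0.004 and a 95% interval of −0.35 to 0.34. Cd300ld passed, at 0.59 to 0.61, when replicate 1 of IFN-γ + ACs, 3 of IL-4 + ACs or 2 of its ACs was left out. In all, 1 of 4 members and 14.3% of 10414 genes passed. Against the combined stimulus, the change with IL-4 was higher by 1.07 ± 0.26 for Cd300a (adjusted p = 0.0055) and by 0.66 ± 0.22 for Cd300lb (adjusted p = 0.036), 2 of 4 members against 20.4% of genes. The second call was lost, with an adjusted p of 0.059 to 0.098, when replicate 1 or 3 of the Type 1 ACs, 1 or 2 of the combined group, 1 or 2 of IL-4 + ACs, or 1 or 2 of the IL-4 experiment's ACs was left out. Against E. coli, 0 of 4 members and 4.43% of genes passed, with 0 members at an unadjusted p under 0.05 and 0 by edgeR or DESeq2. The ACs controls were assigned to the Type 1 and IL-4 experiments by the naming of the libraries, and their levels themselves differed (Cd300lb at 932 ± 107 and 608 ± 56.0, SD, n = 3). The comparison assumes that this assignment is right and that such an offset cancels.

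**Figure D4:**
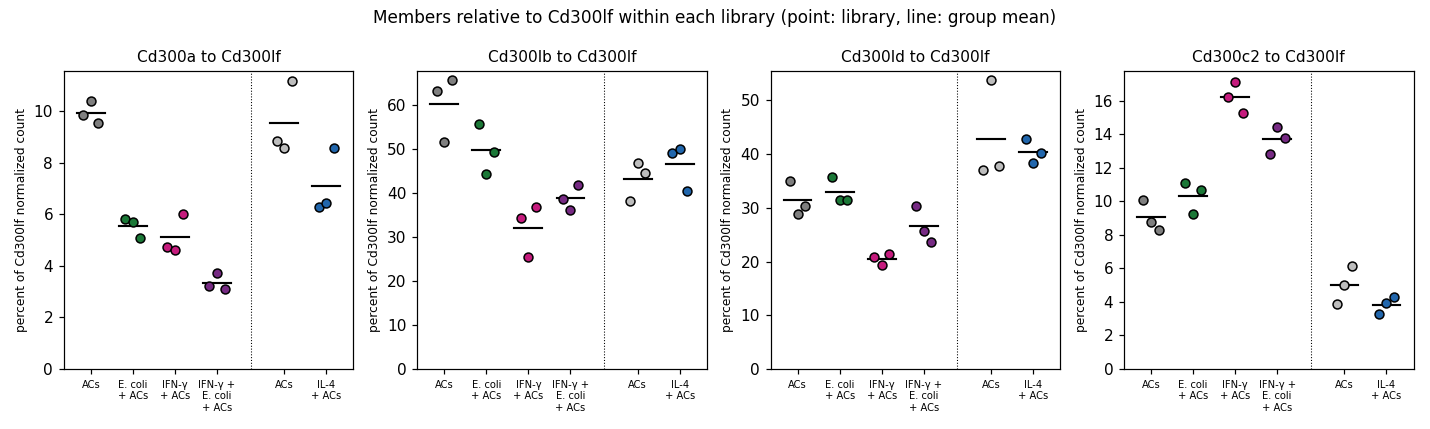
Normalized count of Cd300a, Cd300lb, Cd300ld and Cd300c2 as a percent of that of Cd300lf in the same library (y axis, from 0), by group. Points are libraries and lines group means. The Cd300a percentage falls from 9.53 to 10.4 with ACs to 3.09 to 3.72 with IFN-γ + E. coli + ACs, and that of Cd300c2 is highest with IFN-γ + ACs.

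Setting each member against Cd300lf within a library removes the library's scaling from the value. For the pair of ITIM receptors, Cd300a amounted to 9.53% to 10.4% of the normalized count of Cd300lf with ACs, 5.09% to 5.81% with E. coli + ACs, 4.62% to 6.02% with IFN-γ + ACs and 3.09% to 3.72% with both. All stimulated libraries were below all with ACs, and those with both stimuli were below all others. Cd300lf, the denominator, itself differed by 0.40, 0.27 and 0.33 with E. coli, IFN-γ and both, so these falls mix the 2 genes. With E. coli, Cd300a alone did not pass (−0.45, limma adjusted p = 0.094). With IL-4 + ACs the Cd300a percentage was 6.28% to 8.55% against 8.57% to 11.2% with ACs, again apart, though only just, and neither gene passed the threshold with IL-4. Cd300lb amounted to 51.5% to 65.7% with ACs and 25.4% to 36.7% with IFN-γ + ACs, and Cd300ld to a median of 30.3% with ACs and 20.8% with IFN-γ + ACs, with no overlap in either case. With E. coli + ACs the percentage of Cd300ld was 31.4% to 35.7%, overlapping ACs, and both genes had higher counts there. Between genes these percentages also carry how well each 3′ end is captured, so only their movement across groups is read here.

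**Figure D5:**
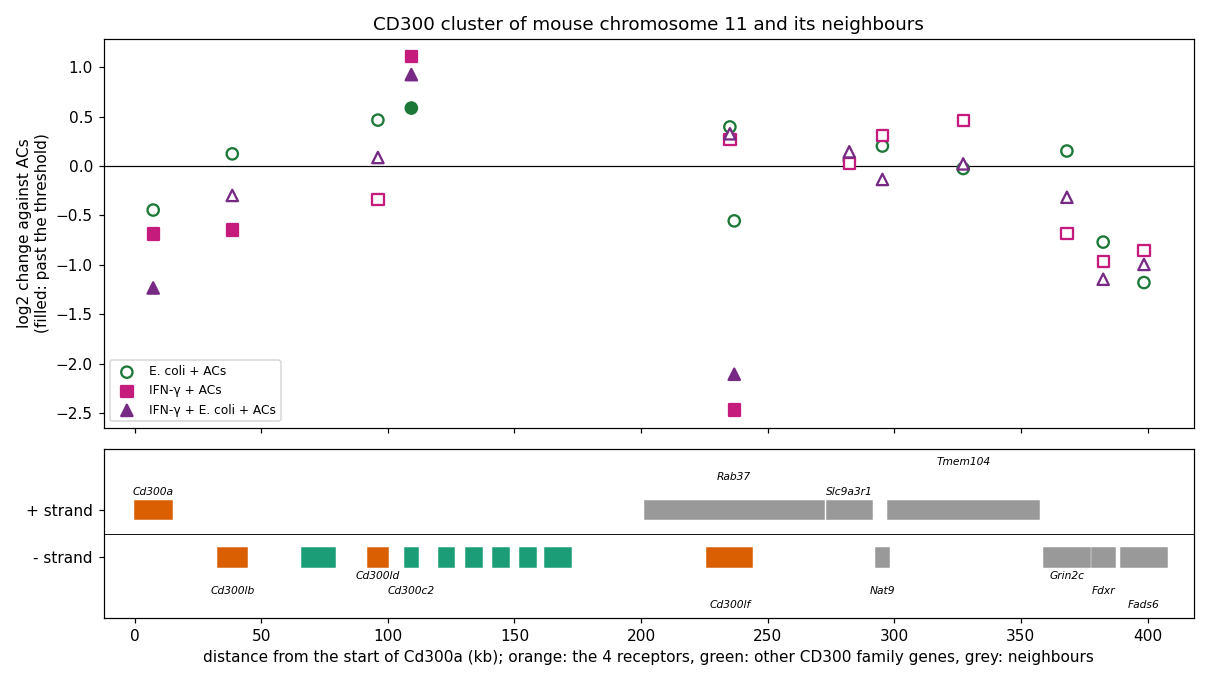
Log2 change against ACs (upper panel, y axis) of the tested genes of the CD300 cluster and its neighbours under the 3 Type 1 stimuli, placed by distance from the start of Cd300a in kb (x axis), above a map of the genes by strand. Filled points are past the threshold. Cd300a lies below 0 and Cd300c2 above 0 under each of the 3 stimuli.

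Genes of the cluster that passed with IFN-γ did not share a direction, since Cd300a and Cd300lb fell and Cd300c2 rose. Of 13 listed neighbours found in the table, 7 were expressed enough to be tested, and only Rab37, which overlaps Cd300lf on the other strand, passed against ACs in the Type 1 experiment. That made 1 of 7 with IFN-γ and 1 of 7 with both stimuli, below the shares of all tested genes past the threshold in either direction, which were 21.4% and 31.9%. With E. coli and with IL-4 the count was 0 of 7 by limma, edgeR and DESeq2, with 0 at an unadjusted p under 0.05, where the shares of all genes were 10.3% and 1.09%. Rab37 encodes a small GTPase of vesicle trafficking, and it fell by 2.47 ± 0.46 on the log2 scale with IFN-γ (limma adjusted p = 0.00041) and by 2.11 ± 0.46 with both stimuli (adjusted p = 0.0012). Its normalized counts were 42.3, 26.3 and 40.0 with ACs and 3.96, 10.3 and 4.10 with IFN-γ + ACs, which were 2 to 9 reads per library, while Cd300lf stood higher in the same libraries. The annotated exons of the pair share 0 bases, so only reads from outside the exons of 1 gene could fall in those of the other. Whether the counting used strand is not given in the sources used here, so such reads cannot be told apart with certainty.

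The promoters of the genes past the threshold with IFN-γ are shown to give the sequence around their start sites, since Cd300a and Cd300lb fell and Cd300c2 rose. Each runs from 250 bases before to 50 bases after the RefSeq start, on the strand of the gene, in GRCm38.p6, and capitals mark matches, on either strand, to the motifs searched. Those were the STAT6 motif, the interferon-stimulated response element (ISRE), GAGGAAG (PU.1), TTNNGNAA (C/EBP) and a strict NF-κB motif. Promoters of all 4 members were found among 32851 in the table.
Cd300a, chr11:114889791-114890090, plus strand: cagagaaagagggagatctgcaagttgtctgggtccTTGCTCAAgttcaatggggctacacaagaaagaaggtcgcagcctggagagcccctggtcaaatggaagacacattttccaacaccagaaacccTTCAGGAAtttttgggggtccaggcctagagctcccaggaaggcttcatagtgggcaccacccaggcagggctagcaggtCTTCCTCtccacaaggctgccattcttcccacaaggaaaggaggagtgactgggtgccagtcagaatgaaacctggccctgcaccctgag
Cd300lb, chr11:114934322-114934621, minus strand: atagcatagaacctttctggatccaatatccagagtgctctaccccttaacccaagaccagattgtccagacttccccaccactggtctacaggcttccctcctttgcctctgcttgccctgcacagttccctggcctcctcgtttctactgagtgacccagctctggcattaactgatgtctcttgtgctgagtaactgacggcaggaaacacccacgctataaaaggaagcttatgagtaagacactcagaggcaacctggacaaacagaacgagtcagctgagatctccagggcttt
Cd300c2, chr11:115001831-115002130, minus strand: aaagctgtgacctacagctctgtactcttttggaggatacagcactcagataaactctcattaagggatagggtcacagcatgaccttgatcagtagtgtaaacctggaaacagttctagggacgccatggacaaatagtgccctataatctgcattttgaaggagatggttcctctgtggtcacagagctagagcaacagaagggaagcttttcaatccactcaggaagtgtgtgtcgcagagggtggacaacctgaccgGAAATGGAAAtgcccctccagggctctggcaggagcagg
The Cd300a window held C/EBP matches 214 and 120 bases before the start and a PU.1 match 40 bases before it. The Cd300c2 window held 1 ISRE match, 11 bases after the start, which 3.44% of all promoters have. Cd300lb matched none of these motifs. In the windows not shown, Cd300lf held 3 C/EBP and 2 PU.1 matches and Cd300ld 1 of each. C/EBP matches occurred in 40.7% and PU.1 matches in 13.6% of all promoters, STAT6 in 6.95% and NF-κB in 0.411%, and the last 2 had 0 matches in the 5 windows. A match is a run of letters, and its absence says only that these letters are not in this window.

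The partners of the receptors were examined as lists. Of 13 adaptors and kinases of activating CD300 receptors, all tested, IFN-γ raised Fyn (1.20 ± 0.26, limma adjusted p = 0.0018) and Lat2 (0.91 ± 0.25, adjusted p = 0.011), which encode a Src-family kinase and a membrane adaptor, and lowered Fgr, another Src-family kinase (−0.64 ± 0.11, adjusted p = 0.00033). The median change of the list was 0.03, against −2.1e-06 over all genes. E. coli lowered Fyn (−0.82 ± 0.26, adjusted p = 0.043), 1 of 13 with a median of 0.15. Both stimuli raised Syk, the kinase that docks on phosphorylated adaptors (0.61 ± 0.12, adjusted p = 0.00037), again 1 of 13, with a median of 0.24. These counts of 3, 1 and 1 of 13 stood beside 21.4%, 10.3% and 31.9% of all tested genes past the threshold in either direction, so none was far above that share. Tyrobp and Fcer1g, the adaptors themselves, did not pass under any stimulus. They are named for their pairing with the members: Fcer1g differed by 0.44, 0.47 and 0.48 with E. coli, IFN-γ and both (adjusted p = 0.015, 0.0047 and 0.0025), and Tyrobp by 0.55, 0.01 and 0.35 (adjusted p = 0.0014, 0.97 and 0.014), all short of 1.5-fold. With 1 library left out the adjusted p reached 0.19 for Fyn with E. coli and 0.058 for Lat2 with IFN-γ (without replicate 3 of ACs), and the change fell under 1.5-fold for Fgr with IFN-γ (−0.57 without its replicate 3) and for Syk (0.50 without replicate 1 of the combined group and 0.55 without replicate 3 of ACs).

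On the inhibitory side, 7 genes of ITIM and YxxM signalling were tested. Ptpn11, the phosphatase SHP2 that ITIMs recruit, rose with E. coli (0.67 ± 0.16, limma adjusted p = 0.0063) and with both stimuli (0.73 ± 0.16, adjusted p = 0.0011). Pik3r1, a regulatory subunit of phosphatidylinositol 3-kinase, fell with both stimuli (−0.94 ± 0.13, adjusted p = 1.3e-05). With IFN-γ alone 0 of the 7 passed by limma, edgeR or DESeq2, with 4 at an unadjusted p under 0.05, and the median was −0.13. The counts of 0, 1 and 2 of 7 with IFN-γ, E. coli and both were near or below the shares of all genes, 21.4%, 10.3% and 31.9%. Medians were 0.14 with E. coli and 0.51 with both, against −0.047 over all genes with both. Without replicate 1 of ACs, Ptpn11 with E. coli was at 0.57, under 1.5-fold.

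Other receptors and bridging proteins for phosphatidylserine formed a list of 14, of which 8 were tested in the Type 1 experiment. IFN-γ raised Mertk (1.81 ± 0.18, limma adjusted p = 4.5e-07), Axl (1.47 ± 0.14, adjusted p = 1.3e-07) and Timd4 (1.00 ± 0.29, adjusted p = 0.015), which encode 2 receptor kinases and a direct phosphatidylserine receptor, and lowered the bridging proteins Mfge8 (−1.06) and Pros1 (−0.95). E. coli lowered 4 and raised 0, with Havcr2 at −1.88, Pros1 at −1.28, Timd4 at −1.27 and Mfge8 at −0.91. Both stimuli raised Mertk (0.60) and lowered Havcr2 (−3.78), Pros1 (−1.69) and Mfge8 (−1.64). The 5, 4 and 4 of 8 stood beside 21.4%, 10.3% and 31.9% of all tested genes. The list's medians were −0.07, −0.70 and −0.53 in that order of stimuli, against −2.1e-06, −0.0040 and −0.047 over all genes. Timd4 is also on the macrophage list and moved with its sum in the Type 1 experiment, higher with IFN-γ and lower with E. coli. In the IL-4 experiment it did not. Timd4 lay at 195 to 196 with IL-4 + ACs and 81.2 to 150 with ACs, without passing the threshold, while the median macrophage sum was 18533 and 25510. The part of macrophage RNA in these values was not tested. Calls lost with 1 library left out were those of Mfge8 with E. coli (adjusted p up to 0.15), Pros1 (up to 0.102) and Timd4 (up to 0.067) with IFN-γ and Mertk with both stimuli (up to 0.071). IL-4 moved 0 of 9 tested genes of this list, 0 of 13 adaptors and kinases and 0 of 6 of the ITIM and YxxM list by limma, with 2, 4 and 0 at an unadjusted p under 0.05. The limma counts stood beside 1.09% of all genes called by limma. By edgeR the 3 counts were 1, 0 and 0 and by DESeq2 2, 0 and 0. No share of all genes by edgeR or DESeq2 is given here, so nothing is read from their counts.

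Genes whose pattern was most like each member were ranked by the Pearson correlation of log2 values over the 12 Type 1 libraries, among 6746 genes with a mean of at least 50. These are descriptions only, since the 12 libraries share 4 groups. Cd300a was most like Cyp4f13 (r = 0.98), Zmynd8 (0.97), Tgfbi (0.97), Pik3r1 (0.96) and Atraid (0.96), and over the 6 IL-4 libraries the same r were 0.77, 0.76, −0.16, 0.75 and 0.40. Cd300ld was most like Abtb2 (0.96), Il5 (0.95), Ear6 (0.95), Ap4s1 (0.93) and 9830107B12Rik (0.92), of which Il5 is carried by the transgene of these mice. Cd300lb was most like Lrp12 (0.96), Bhlhe40 (0.93), Adgre5 (0.92), Sorl1 (0.91) and Phykpl (0.90). Cd300lf was most like Irak2 (0.90), Gsk3a (0.88), Taf5l (0.88), Tmem119 (0.88) and Ifitm1 (0.88), and over the 6 IL-4 libraries Ifitm1 was at −0.84.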

How the data were processed

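RNA was sequenced in 18 libraries by CEL-Seq2, and reads were aligned to GRCm38. The table the authors deposited holds a normalized signal: each gene's reads, scaled by the DESeq2 size factor of that library. The submitters' processing notes name TopHat2 2.1.0 and HTSeq 0.6.1, and the paper also describes STAR, so which pipeline made the table is not settled, and neither is strandedness. Values were whole multiples of 1 step per library (100% within 0.1 read), which gave back whole reads. All columns were used.

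Groups came from the labels, and the 2 groups with ACs alone were told apart by spelling (EosAcs and Eosinophlis_apoptoticcell). The methods give 3 biological replicates and a different mouse per library in 1 experiment, and the labels name none, so p-values measure the spread between these libraries. limma 3.58.1 (R 4.3.3, trended eBayes) was run on log2(normalized count + 1) for genes with a mean of at least 10, with no replicate block, over the libraries of each experiment, or all 18 for differences between experiments. The threshold was an adjusted p under 0.05 and 1.5-fold. The pseudocount understates changes of low genes. Of 54446 identifiers, 54409 matched a symbol. edgeR 4.0.16 and DESeq2 1.42.0 on recovered reads, other filters and pseudocounts, upper quartile rescaling, array weights, the replicate block and leaving out libraries were alternatives. The scripts were tested on simulated data. The 95% intervals come from limma and rest on the spread between replicate libraries. Named genes were the 4 members, other family genes, list genes past the threshold (up to 5 per list and comparison) and the 5 genes most like each member. The members and lists were chosen with earlier results of these data known, so they are not independent of them. Promoters are RefSeq's, in GRCm38.p6, and coding stretches GENCODE's. A further motif that was searched is not reported here.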

Additional observations from a re-analysis of the deposited data

Results flagged for a closer look

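For these genes the change under a stimulus differed from the change under another by a test of the difference itself. The change of Cd300lb with IL-4 exceeded its change with IFN-γ by 1.01 on the log2 scale (limma adjusted p = 0.0029) and its change with IFN-γ + E. coli by 0.66 (adjusted p = 0.036), and the change of Cd300a with IL-4 exceeded that with IFN-γ + E. coli by 1.07 (adjusted p = 0.0055). For Cd300c2 the change with IL-4 was lower than that with IFN-γ by a difference of −1.21 (adjusted p = 0.0018) and than that with IFN-γ + E. coli by −1.02 (adjusted p = 0.0053), and its combined change with IFN-γ and E. coli departed from the sum of the single changes by −0.77 (adjusted p = 0.027). Of these calls, 2 were lost when some single libraries were left out. The limma adjusted p reached 0.098 for Cd300lb against IFN-γ + E. coli and 0.082 for the departure of Cd300c2. The first was also lost with no minimum mean (0.096) and upper quartile rescaling (0.18), and the second with all 18 libraries in 1 fit (0.081). A separate check on single libraries that stand apart was not possible, since groups of 3 libraries are too small for it.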

How the results depend on the processing

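With adjusted p alone and no fold threshold, members past the threshold numbered 2 with E. coli (Cd300ld 0.46 and Cd300lf 0.40) and 2 with both stimuli (Cd300lf 0.33). The shares of all genes at that rule were 13.5% and 39.1%. The same rule gave 2 for both stimuli against IFN-γ, 3 for both against E. coli and 2 for IL-4 minus IFN-γ. For these comparisons between stimuli no share of all genes at that rule is given, so nothing is read from the counts. Array weights also gave 2 for IL-4 minus IFN-γ. For IL-4 minus both stimuli, no minimum mean and upper quartile rescaling each gave 1. Leaving out the low-depth libraries of the IL-4 experiment gave 1 member with IL-4, Cd300lb at 0.59. With 1 library left out, members past the threshold ranged from 1 to 2 with IFN-γ (Cd300lb −0.76 to −0.49), from 0 to 1 for both stimuli against IFN-γ, from 1 to 2 for IL-4 minus IFN-γ and from 1 to 2 for IL-4 minus both.

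Signs turned only for values near 0 that were not past the threshold. Cd300ld ranged from −0.012 to 0.16 with both stimuli and from −0.14 to 0.036 in the interaction, and Cd300lf from −0.0069 to 0.12 for both stimuli against IFN-γ, from −0.13 to 0.083 for IL-4 minus IFN-γ and from −0.19 to 0.024 for IL-4 minus both, with 1 library left out. Upper quartile rescaling gave Cd300ld 0.0084 in the interaction and −0.14 for IL-4 minus both, and moved the median of all genes in the latter from 0.043 to −0.20 and with both stimuli from −0.047 to 0.066. For IL-4 minus IFN-γ, Cd300lf was 0.0065 with edgeR, 0.0057 with DESeq2 and 0.093 without the low-depth libraries, where it was 0.034 for IL-4 minus both. Cd300c2 with IL-4 was 0.015 with array weights, 0.070 without the low-depth libraries and −0.21 to 0.095 with 1 library left out.

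Replicate numbers showed no sign of pairing the libraries, but whether same-numbered libraries share a mouse is not given. Same-numbered deviations had a mean correlation of 0.0054 in the Type 1 experiment (−0.089 to 0.085, n = 18 pairs) and 0.0095 in the IL-4 experiment. With a replicate block, 2 members passed with IFN-γ and 1 with both stimuli, as without it. Counts over all genes moved by over 1.5 times for 14 results, most with IL-4, from 79 higher and 37 lower to 31 to 389 and 16 to 356. E. coli lower ranged from 352 to 936 (534), IFN-γ lower from 645 to 1232 (1013), both lower from 963 to 1966 (1746), both against IFN-γ higher from 488 to 963 (606), the interaction from 161 to 478 higher (321) and 239 to 595 lower (435), and IL-4 minus IFN-γ, E. coli and both from 462 to 1142 (643), 131 to 746 (196) and 641 to 1542 (1007) higher and 659 to 1281 (843), 187 to 685 (265) and 884 to 1861 (1121) lower. The fewest reads were 26 for Cd300a and 13 for Cd300c2, both in replicate 3 of IL-4 + ACs.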
